A study of Mus musculus with 6 samples.

Results

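Adenylyl cyclases are the enzymes that make cyclic AMP from ATP, and 8 of their genes were examined here in the translatome of dopamine D2 receptor cells of the mouse medial prefrontal cortex (mPFC): Adcy1, Adcy2, Adcy3, Adcy5, Adcy6, Adcy7, Adcy8 and Adcy9. The members were the rows of the deposited transcript table that carry one of these gene names. They comprised 21 of 115220 transcripts and 8 of 47729 genes. Both groups were adult male D2Cre/LSL-Flag-Cas9/RiboTag mice, labelled as strain C57BL/6 and aged 2.5 to 3 months. A heterozygous bacterial artificial chromosome transgene placed Cre in D2 cells, so that Cas9 and the HA-tagged ribosomal protein Rpl22 were made there in both groups. Ctrl mice received AAV GFP in the mPFC. Gsk3sKO mice received AAV Gsk3sgRNA/GFP, which carries a guide against Gsk3b, the gene of glycogen synthase kinase 3β. Ribosome-bound RNA was taken by RiboTag immunoprecipitation 3 weeks later and sequenced in 3 libraries per group. The sources used here do not say whether a library is 1 mouse or a pool, so p-values measure the spread between libraries.

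The membrane cyclases are activated by the stimulatory G protein and differ in what else they read. Adcy1, Adcy3 and Adcy8 encode enzymes that calcium and calmodulin stimulate, Adcy5 and Adcy6 encode enzymes that calcium inhibits, Adcy2 and Adcy7 encode enzymes that G protein βγ subunits stimulate, and the Adcy9 enzyme is known for its weak response to forskolin. The D2 receptor couples to inhibitory G proteins that lower cyclase activity, and cyclic AMP in turn acts on protein kinase A and Epac exchange factors.

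The results turn on Adcy9, whose annotated transcripts in GENCODE M21 (build GRCm38) are of 2 coding forms. ENSMUST00000005719 (chr16:4287545-4419587, minus strand, 10 exons) and ENSMUST00000117801 (chr16:4287529-4419808, 11 exons) share a coding sequence of 1353 codons. The former holds no exon base that is not in the latter, which has 50 exon bases more. ENSMUST00000120080 (chr16:4287529-4420498, 12 exons) has 690 exon bases that no other listed Adcy9 transcript holds. It lacks a stretch of 223 bases that is coding in the longer form (bases 351 to 573 of the coding sequence, chr16:4418973-4419195). Its annotated start codon lies 237 codons downstream of the first one in the same reading frame, which leaves 1116 codons. The stretch that the shorter form splices out is shown because it is where the forms differ inside the coding exon, with its first and last 2 bases in capitals, followed by the 30 bases from each start codon (capitals, ATG) and by 15 bases on each side of the junction of the shorter form (capitals, 2 bases on each side). All are given 5′ to 3′ on the strand of the gene.
Stretch spliced out: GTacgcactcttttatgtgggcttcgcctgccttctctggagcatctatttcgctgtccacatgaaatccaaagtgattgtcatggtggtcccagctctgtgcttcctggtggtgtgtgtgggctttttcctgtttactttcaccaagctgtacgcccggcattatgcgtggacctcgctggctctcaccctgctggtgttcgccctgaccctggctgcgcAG
Start of the longer form, chr16:4419516-4419545: ATGgcttcctcaccccaccagcagctgctg
Start of the shorter form, chr16:4418805-4418834: ATGcagttacctctgtacctgagcttgttt
Junction of the shorter form: ccagcgccgcttcCGTTtcaggtttggaca

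**Figure D1:**
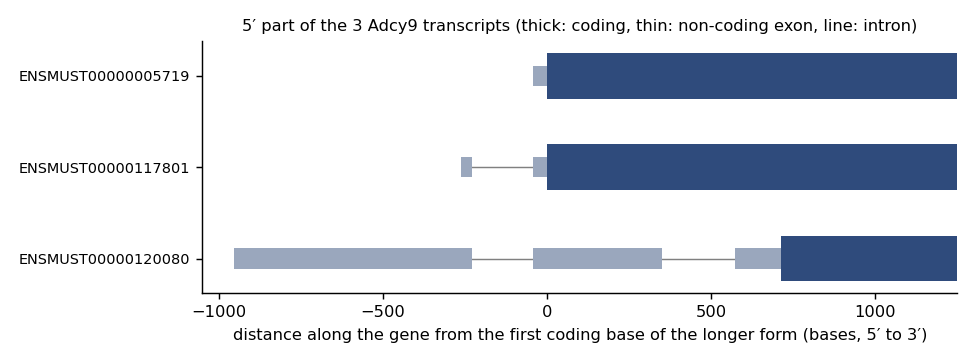
The 5′ parts of the 3 Adcy9 transcripts are drawn against distance along the gene, in bases from the first coding base of the longer form. ENSMUST00000005719 and ENSMUST00000117801 begin coding at the same base, whereas ENSMUST00000120080 omits 223 bases and begins coding 711 bases further on.

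The libraries were first examined as a whole. Values were FPKM, fragments per kilobase of transcript scaled to the mapped fragments of the library, so that levels can be compared between genes, and the total of a gene is the sum over its transcripts. No read totals were among the files used here. The spacing of the lowest values pointed to about 23500000 to 45200000 fragments per library, with 15.7% to 31.0% of low values within 0.02 fragments of a whole number at those depths, so this is an estimate only. On that estimate, each member other than Adcy7 rested on about 732 to 27761 fragments per library, and Adcy7 on 11.8 to 159. Drd2, which marks the targeted cells, measured 1.58, 6.02 and 14.1 FPKM in Ctrl and 8.32, 5.96 and 7.28 FPKM in Gsk3sKO. Markers of broader neuron classes, which D2 cells of the cortex can themselves express, were more abundant, with Slc17a7 of excitatory neurons at 192 to 273 FPKM and Sst of inhibitory neurons at 652 to 942 FPKM. The gene total of Gsk3b measured 35.6, 53.8 and 56.5 FPKM in Ctrl and 36.9, 37.0 and 33.6 FPKM in Gsk3sKO (limma log2 difference -0.40, standard error 0.19, adjusted p = 0.773). The library labelled Ctrl replicate 1 thus lay among the Gsk3sKO libraries for Gsk3b and lowest of all 6 for Drd2. Without it the Gsk3b difference was -0.61 (limma, standard error 0.13, adjusted p = 0.705). The paper showed the knockout in the mPFC by staining for GSK3β protein, which these RNA values do not measure. Whether the label of Ctrl replicate 1 is right was not tested. Several results, among them those of Adcy9, are also given without this library. The marker calls are given with all libraries only.

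Adcy1 was the most abundant cyclase in every library, and Adcy7 the least. Averaged over the 6 libraries, gene totals ran from 53.7 FPKM for Adcy1 through 30.1 for Adcy9, 28.4 for Adcy2, 13.9 for Adcy5, 9.24 for Adcy3, 6.24 for Adcy8 and 4.95 for Adcy6 to 0.362 for Adcy7. The ranges of Adcy1 and Adcy9 did not overlap, nor did those of Adcy2 and Adcy5, or of Adcy6 and Adcy7. Adcy9 exceeded Adcy2 in 3 of 6 libraries and the pair could not be ordered. Adcy5 exceeded Adcy3 in all 6 libraries although their ranges overlapped, while Adcy3 exceeded Adcy8, and Adcy8 exceeded Adcy6, in 5 of 6. The summed FPKM of the members was 149 ± 21.01 (SD) over the 3 Ctrl libraries and 145 ± 5.94 (SD) over the 3 Gsk3sKO libraries.

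The 3 calcium and calmodulin stimulated cyclases together made up 46.3% ± 2.81 of this sum in the 3 Ctrl libraries and 48.2% ± 1.43 in the 3 Gsk3sKO libraries (mean ± SD, as for the other classes). Adcy9 held 21.9% ± 3.96 and 18.6% ± 1.73, the βγ stimulated Adcy2 and Adcy7 18.9% ± 2.74 and 20.5% ± 2.12, and the calcium inhibited Adcy5 and Adcy6 12.9% ± 2.54 and 12.7% ± 0.881. Each of these 4 class shares differed between the groups by less than 1 SD of the Ctrl libraries.

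**Figure D2:**
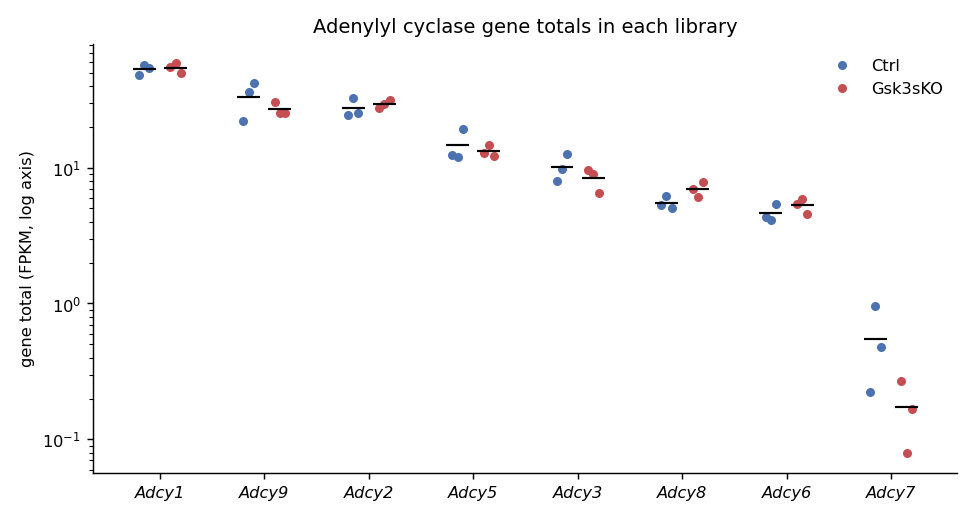
Gene totals of the 8 adenylyl cyclases are plotted in FPKM on a log axis, with 1 point per library and a bar at the mean of the 3 libraries of each group. Adcy1 lies between 48.2 and 58.3 FPKM and Adcy7 below 1 FPKM, and for no member are the groups fully apart.

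No cyclase passed the test at the level of the gene. Of the 7 members that reached a mean of 1 FPKM, 0 had a limma p under 0.05, against 6.56% of the 12874 gene totals tested (844, of which 175 or 1.36% were higher and 669 or 5.20% lower in Gsk3sKO; after rescaling each library by its median ratio, 276 were higher and 528 lower). Without Ctrl replicate 1, 1 of the 7, Adcy9, was called, beside 678 of all 12874 gene totals in that fit. Only 6 gene totals of the whole table, none of them a member, had an adjusted p under 0.05. The groups overlapped for all 8 members, as they did for 88.0% of the gene totals tested. The median log2 difference of the 7 members was 0.04, beside -0.06 over all gene totals, with 4 members above 0 and 3 below. In such bulk material, fewer cells of a type and less RNA per cell cannot be told apart.

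Among the calcium and calmodulin stimulated enzymes, Adcy1, which is prominent in cortex and hippocampus, measured 48.2, 57.1 and 53.7 FPKM in Ctrl and 55.0, 58.3 and 49.9 FPKM in Gsk3sKO. The groups overlapped almost fully, with a log2 difference of 0.04 (limma, standard error 0.13, 95% interval -0.27 to 0.34, adjusted p = 0.967). The interval covers folds from 0.830 to 1.27. The sign was not stable, since the difference was -0.03 without Ctrl replicate 1 and -0.01 without Gsk3sKO replicate 2. A single transcript, ENSMUST00000020706, held at least 99.7% of the Adcy1 total in every library.

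Adcy8, also of the calcium and calmodulin stimulated class, measured 5.31, 6.18 and 5.03 FPKM in Ctrl and 6.94, 6.10 and 7.88 FPKM in Gsk3sKO. In 2 of the 3 Gsk3sKO libraries it lay above every Ctrl library. The log2 difference of 0.29 (limma, standard error 0.20, 95% interval -0.17 to 0.76, adjusted p = 0.831) did not pass the test. The exact permutation test over the 6 libraries gave p = 0.2 (2-sided), where 0.1 is the smallest value that 3 against 3 allows.

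Adcy3, the cyclase of olfactory neurons and of neuronal cilia, measured 7.93, 9.84 and 12.6 FPKM in Ctrl and 9.58, 9.03 and 6.50 FPKM in Gsk3sKO. The lowest value was in Gsk3sKO replicate 3 and the highest in Ctrl replicate 3. The log2 difference was -0.24 (limma, standard error 0.23, 95% interval -0.77 to 0.29, adjusted p = 0.876), and Ctrl and Gsk3sKO overlapped in their middle values.

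Of the βγ stimulated pair, Adcy2 measured 24.5, 32.5 and 25.4 FPKM in Ctrl and 27.6, 29.1 and 31.4 FPKM in Gsk3sKO. All 3 Gsk3sKO values fell inside the Ctrl range, and the log2 difference was 0.10 (limma, standard error 0.16, 95% interval -0.26 to 0.46, adjusted p = 0.930). Adcy7, a cyclase known from immune cells, measured 0.224, 0.954 and 0.479 FPKM in Ctrl and 0.269, 0.0789 and 0.168 FPKM in Gsk3sKO. It was below the level tested, and 2 of the 3 Gsk3sKO libraries were lower than every Ctrl library (exact permutation p = 0.2). With no filter on low values its log2 difference was -0.38 (limma adjusted p = 0.798). The microglia markers summed to 20.3 to 26.7 FPKM in Ctrl and 14.7 to 21.6 FPKM in Gsk3sKO, with 2 of 5 tested markers (C1qa and C1qb) lower and none higher, against the 5.20% lower of all gene totals, and none of the 6 listed at 0 throughout. P2ry12 lay the other way, at 6.47, 1.31 and 1.07 FPKM in Ctrl and 3.56, 3.81 and 6.26 FPKM in Gsk3sKO, and was not called. The part of these cells in the Adcy7 values was not tested.

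Adcy5, the main cyclase of striatal D2 neurons, measured 12.4, 11.98 and 19.4 FPKM in Ctrl and 12.8, 14.6 and 12.1 FPKM in Gsk3sKO. Ctrl replicate 3 stood above the other 5 libraries, which lay between 11.98 and 14.6 FPKM. The log2 difference was -0.11 (limma, standard error 0.21, 95% interval -0.60 to 0.38, adjusted p = 0.942) and became 0.10 without Ctrl replicate 3. In that library the D2 neuron markers Drd2, Penk and Ppp1r1b were also at their highest, at 1.95, 1.62 and 1.35 times their means, and Adcy5 was at 1.39 times its own. In Gsk3sKO replicate 3, Penk was at 1.55 and Ppp1r1b at 1.29 times its mean, where Adcy5 was at 0.874. The D2 neuron markers summed to 123 to 357 FPKM in Ctrl and 174 to 335 FPKM in Gsk3sKO, with none of the 3 called in either direction. Whether the share of D2 cells sets the Adcy5 values was not tested.

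**Figure D3:**
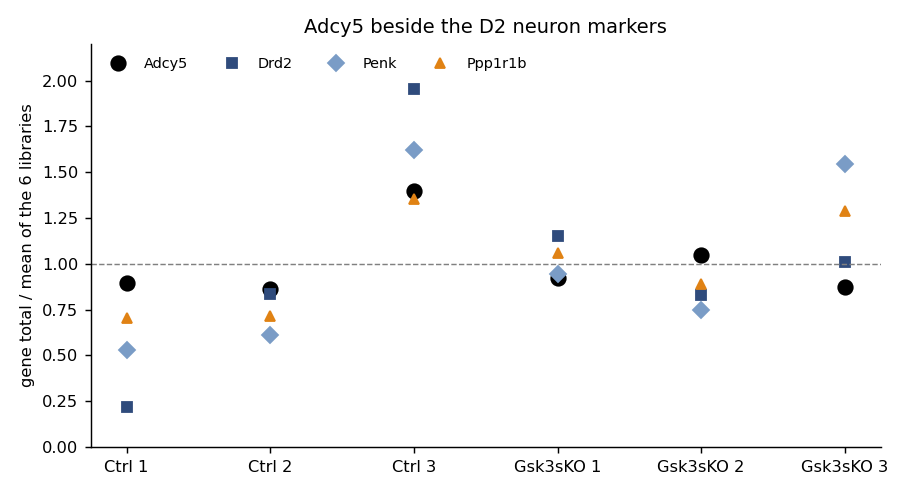
Gene totals of Adcy5 and of 3 D2 neuron markers in each library are plotted as a ratio to the mean of the gene over the 6 libraries. In Ctrl replicate 3 all 4 genes lie above 1, with Drd2 at 1.95 and Adcy5 at 1.39, whereas in Gsk3sKO replicate 3 Penk is at 1.55 and Adcy5 at 0.874.

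Adcy6, the other calcium inhibited enzyme, measured 4.32, 4.11 and 5.42 FPKM in Ctrl and 5.42, 5.83 and 4.59 FPKM in Gsk3sKO. The groups overlapped, and the log2 difference was 0.16 (limma, standard error 0.22, 95% interval -0.34 to 0.66, adjusted p = 0.915). Gsk3sKO replicates 1 and 2 lay above every Ctrl library, replicate 1 only barely (5.424 against 5.423 FPKM in Ctrl replicate 3). The exact permutation test gave p = 0.2, as for Adcy8. Adcy2, Adcy5, Adcy6 and Adcy8 each have 1 listed transcript, so that their gene totals and transcripts are the same values.

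The Adcy9 gene total measured 22.0, 36.0 and 41.6 FPKM in Ctrl and 30.3, 25.3 and 25.2 FPKM in Gsk3sKO. The Gsk3sKO libraries all lay inside the wide Ctrl range, whose lowest value was Ctrl replicate 1. The log2 difference was -0.25 (limma, standard error 0.23, 95% interval -0.78 to 0.28, adjusted p = 0.873), which covers folds from 0.581 to 1.21. Without Ctrl replicate 1 the difference was -0.51 and passed the unadjusted threshold (limma adjusted p = 0.885). The call on the gene total therefore rests on whether this 1 library is kept. The total was described as nearly stable when the family was chosen, so this test is not independent evidence of stability.

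**Figure D4:**
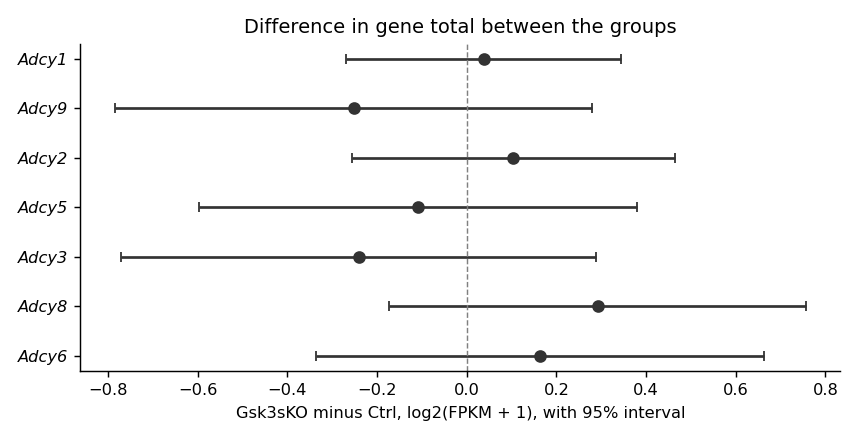
The difference in log2(FPKM + 1) between Gsk3sKO and Ctrl is plotted for the 7 cyclases tested, with bars for the 95% interval of the limma fit. Each interval includes 0, from Adcy1, whose difference is 0.04, to Adcy8 at 0.29 and Adcy9 at -0.25.

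Within Adcy9, the FPKM were divided among the 3 transcripts in unlike ways. ENSMUST00000005719 measured 6.51, 34.6 and 41.0 FPKM in Ctrl and was listed at 0 in all 3 Gsk3sKO libraries. This loss, beside a gene total described as nearly stable, was part of the reason for looking at the family. It largely fixes that the other Adcy9 transcripts are higher in Gsk3sKO, so the 3 transcripts are described with no test. Among the 21584 transcripts with a mean of at least 1 FPKM, 332 (1.54%) were listed at 0 in all Gsk3sKO libraries and 161 in all Ctrl libraries.

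The transcript with the same coding sequence, ENSMUST00000117801, measured 0.0306, 0.286 and 0.000932 FPKM in Ctrl and 9.45, 13.1 and 0.188 FPKM in Gsk3sKO. It was high in 2 of the 3 Gsk3sKO libraries and near 0 in the other four. The log2 difference was 2.35, and 4.27 with a pseudocount of 0.1 FPKM in place of 1. It was 3.47 without Gsk3sKO replicate 3 and between 1.68 and 2.46 when any of the other 5 libraries was left out.

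The shorter form, ENSMUST00000120080, measured 15.5, 1.13 and 0.658 FPKM in Ctrl and 20.8, 12.1 and 25.0 FPKM in Gsk3sKO. Ctrl replicate 1 lay inside the Gsk3sKO range and the other Ctrl libraries far below it. Its log2 difference was 2.33. Without Ctrl replicate 1 it was 3.38, and it was between 1.72 and 2.62 when any of the other 5 was left out.

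Of the 9 transcripts of the other members that reached a mean of 1 FPKM, 0 were called by limma, against 5.56% of the 21584 transcripts tested. Their groups overlapped in each case, whereas 11.2% of all transcripts tested had groups that did not. In the whole table, 0 transcripts had an adjusted p under 0.05 by limma, with 1200 at an unadjusted p under 0.05, and 4 had one in the linear model with no moderated variance.

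**Figure D5:**
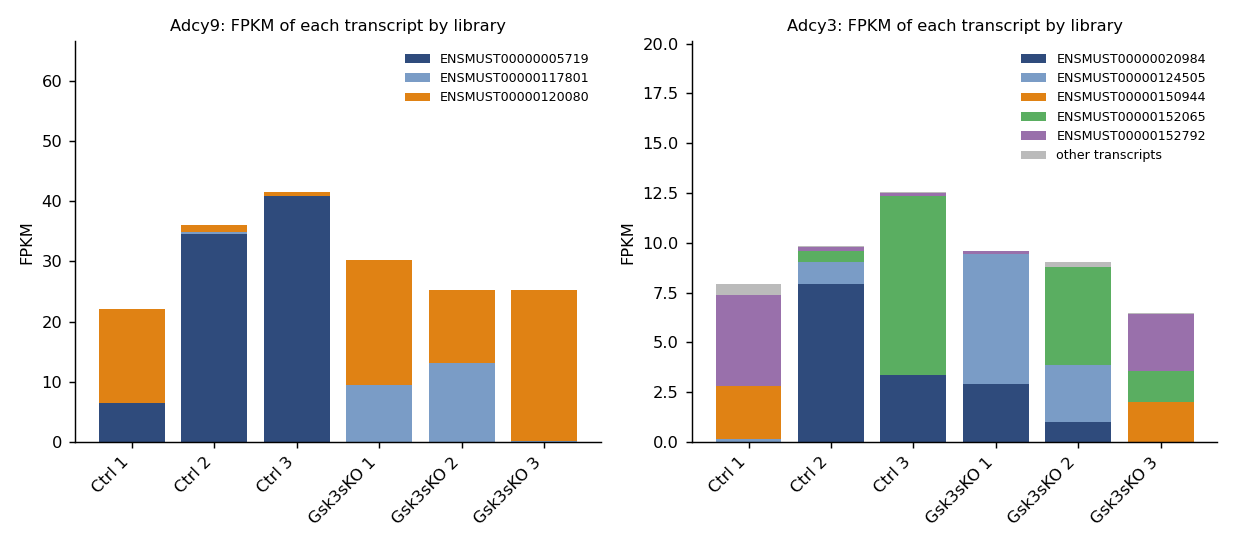
Bars show the FPKM of each Adcy9 transcript (left) and each Adcy3 transcript (right), stacked to the gene total of each of the 6 libraries; transcripts with a mean under 0.5 FPKM are pooled as other transcripts. ENSMUST00000005719 is seen in the Ctrl libraries only, ENSMUST00000120080 makes up most of Ctrl replicate 1 as of Gsk3sKO replicates 1 and 3, and the leading Adcy3 transcript changes from library to library within each group.

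Taking ENSMUST00000005719 and ENSMUST00000117801 together, since they encode the same protein, gave 6.54, 34.9 and 41.0 FPKM for the longer form in Ctrl and 9.45, 13.1 and 0.188 FPKM in Gsk3sKO. The groups then overlapped, and the log2 difference was -2.01, or -2.79 without Ctrl replicate 1. As a share of the Adcy9 total the longer form was 29.7%, 96.9% and 98.4% in Ctrl and 31.2%, 52.0% and 0.744% in Gsk3sKO. For this share the library labelled Ctrl replicate 1 was nearer to the mean of the Gsk3sKO libraries than to the other Ctrl libraries.

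Some oligodendrocyte and microglia markers were lower in the same comparison. Of the oligodendrocyte markers, 3 of 6 (Mog, Mag and Cnp) were lower in Gsk3sKO and none higher, against the 5.20% lower of all gene totals, with summed levels of 118 to 183 FPKM in Ctrl and 128 to 165 FPKM in Gsk3sKO. None of the 6 was listed at 0 throughout, but Mog was at 0 in 2 of the Gsk3sKO libraries. Their part in the Adcy9 values was not tested.

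In the fit of shares, each transcript as a fraction of its gene total, 0 of the 4 tested transcripts of Adcy3 were called, against 4.95% of the 13919 shares tested. The 3 Adcy9 shares are described only. Within Ctrl alone, the share of ENSMUST00000005719 was 29.6%, 96.1% and 98.4%, a range of 68.9 percentage points. The median range in Ctrl over all transcripts in the fit was 19.2 points, and 8.66% had a range at least as wide.

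Adcy3 was also divided among its transcripts in ways that differed from library to library within a group. The leading transcript was ENSMUST00000152792 in Ctrl replicate 1 (58.2% of the total) and Gsk3sKO replicate 3 (44.6%), ENSMUST00000020984 in Ctrl replicate 2 (80.7%), ENSMUST00000152065 in Ctrl replicate 3 (71.5%) and Gsk3sKO replicate 2 (54.8%), and ENSMUST00000124505 in Gsk3sKO replicate 1 (68.1%). ENSMUST00000152792 is annotated as a retained intron with no coding sequence, as is ENSMUST00000150944, which held another 33.2% in Ctrl replicate 1 and 31.1% in Gsk3sKO replicate 3, so that most of the Adcy3 total in those libraries was assigned to noncoding transcripts. ENSMUST00000020984, ENSMUST00000152065 and ENSMUST00000124505 hold no exon base that is absent from the other listed Adcy3 transcripts, as is true of ENSMUST00000005719 and ENSMUST00000117801 of Adcy9. ENSMUST00000152065, the Adcy3 transcript with the highest mean, measured 0, 0.541 and 8.99 FPKM in Ctrl and 0, 4.95 and 1.53 FPKM in Gsk3sKO (log2 difference -0.01, limma adjusted p = 0.999). ENSMUST00000124505 measured 0.155, 1.08 and 0 FPKM in Ctrl and 6.52, 2.87 and 0 FPKM in Gsk3sKO, with a log2 difference of 1.199 (limma adjusted p = 0.890), of 2.01 past the unadjusted threshold without Gsk3sKO replicate 3 (adjusted p = 0.810), and of 0.55 without Gsk3sKO replicate 1. With all libraries none of the 4 Adcy3 transcripts tested was called, while the gene total varied only between 6.50 and 12.6 FPKM. Of the 4 listed Adcy7 transcripts, ENSMUST00000169037 held the whole total and the other three were at 0 in all libraries.

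Few genes around the cyclases were called. Of 54 genes on 8 lists of the pathway, 48 were tested as gene totals, 2 were lower in Gsk3sKO (Akap10 and Atf1) and none was higher, against 5.20% lower and 1.36% higher of all gene totals, and the median log2 difference was 0.00. These shares are near the background. Akap10, which anchors protein kinase A at membranes, measured 12.5, 11.9 and 11.1 FPKM in Ctrl and 10.3, 6.91 and 7.19 FPKM in Gsk3sKO (log2 difference -0.51, standard error 0.20, limma adjusted p = 0.741). Atf1, a transcription factor of the CREB family, measured 5.54, 3.21 and 3.98 FPKM in Ctrl and 2.83, 2.43 and 1.10 FPKM in Gsk3sKO (log2 difference -0.77, standard error 0.32, limma adjusted p = 0.750). The groups overlapped for 44 of the 48 genes, near the 88.0% of all gene totals. They did not for Akap10 and Atf1, nor for Akap1 (8.34 to 9.004 against 9.58 to 11.1 FPKM) and Akap6 (48.2 to 53.8 against 54.4 to 64.5 FPKM), which were higher in Gsk3sKO libraries but not called. Without Gsk3sKO replicate 1 the Akap10 difference was -0.67 and still called, and without any of the other 5 libraries it lay between -0.55 and -0.42 and was not. Atf1 was still called without Ctrl replicate 2 or Gsk3sKO replicate 1, and lay between -0.86 and -0.51 uncalled without any of the other four.

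The other lists held no further call. Among the 11 A-kinase anchoring proteins the median was -0.04, and Akap5, the most abundant, measured 61.1 to 79.0 FPKM in Ctrl and 55.1 to 62.6 FPKM in Gsk3sKO. Among the 8 genes of the CREB family and its coactivators the median was -0.02, with Crebbp the highest at 21.4 to 36.1 FPKM over all libraries. The 8 tested genes of the G protein list, which includes Ric8b, not itself a subunit, had a median of -0.07. Gnas, a stimulatory subunit and the most abundant of the list, measured 218 to 220 FPKM in Ctrl and 156 to 334 FPKM in Gsk3sKO. The 3 calmodulin genes had a median of -0.04, and Calm2 ranged from 2116 to 3361 FPKM. The 9 subunits and inhibitors of protein kinase A had a median of 0.05, led by Prkar1b at 326 to 400 FPKM. Of the Epac exchange factors, Rapgef4 ranged from 70.2 to 88.0 FPKM with a log2 difference of 0.04 and Rapgef3 from 0.658 to 5.19 FPKM with -0.58, and their relative Rapgef2, which is not an Epac, was at -0.02. Of 9 amine and adenosine receptors, 6 were tested with a median of 0.17, and Adora1 was the highest at 12.2 to 15.3 FPKM. The cyclases outside the family examined, Adcy4 and Adcy10, stayed at or below 0.543 FPKM in every library and were not tested.

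Of the remaining markers, Tbr1 was the 1 of 5 excitatory neuron markers that was lower, with a median of -0.17 for the list and sums of 458 to 497 FPKM in Ctrl and 457 to 484 FPKM in Gsk3sKO. None of the inhibitory neuron (6 tested, median 0.08, sums of 990 to 1318 and 935 to 1029 FPKM), astrocyte (6 tested, median 0.04, 145 to 177 and 144 to 192 FPKM) and endothelial markers (5 tested, median 0.11, 9.91 to 37.8 and 15.7 to 34.0 FPKM) was called.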

How the data were processed

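Libraries were made with a stranded total RNA kit. Per the labels' processing notes, the authors used HISAT2 2.1.0, SAMtools 1.9 and StringTie 1.3.4d on build GRCm38; what each did and which annotation served are not stated there. The deposited table holds FPKM per transcript and library, which assigns reads shared by overlapping transcripts by a model. Of its 115220 transcripts, 114332 were found in GENCODE M21, which gave lengths and coding sequences; the other 888 entered all fits. FPKM was summed by gene. Features with a mean FPKM of at least 1 were fitted as log2(FPKM + 1) with limma 3.58.1 (trend, R 4.3.3), Gsk3sKO against Ctrl, 2-sided, on the whole table. A call is an unadjusted p under 0.05, and adjusted p-values are Benjamini-Hochberg over all features. A difference on this scale understates the change of low genes. Shares of the gene total were fitted on the arcsine square root scale. The fits were tested on simulated data. Gene totals of members also had an exact permutation test (scipy 1.17.1).

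The members and gene lists were chosen with earlier results of these data known, and the sums by coding sequence after these values were seen. Named genes were the members, their leading, called or lost transcripts, called list genes, the most abundant gene of each list, Drd2, Gsk3b and the features most like Adcy9 (3 for the gene total, 3 for the transcript at 0). Ric8a was not analysed here, and 1 D2 neuron marker and 1 of the features most like Adcy9 are not reported here. Same-numbered libraries did not deviate together (correlations -0.03, -0.01 and -0.08), so no block was used.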

Additional observations from a re-analysis of the deposited data

How the results depend on the processing

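Of 209 single values refitted under another setting, 9 changed sign, 7 of them with 1 library left out. Calls changed mostly when 1 library was left out. With 1 library left out, the number of called member gene totals ranged from 0 to 1 and of pathway list genes from 0 to 3. Over the whole table, 574 to 1175 of 12874 gene totals were called in these fits. Called member transcripts ranged from 1 to 3, beside 894 to 1733 of all 21584 transcripts. Called member transcript shares ranged from 1 to 3, beside 587 to 1140 of all 13919 shares. The called member gene total was Adcy9 without Ctrl replicate 1. The 3 transcripts called with all libraries were those of Adcy9, and the 1 called share was that of ENSMUST00000005719. The pattern of Adcy9 was used to choose the family, so the transcript and share counts are no support. Called member transcripts fell from 3 to 1 with no moderation of variances and to 1 with transcripts of one coding sequence summed, an alternative chosen after seeing the data. Called pathway genes fell from 2 to 1 with no filter, where Atf1 was not called, and to 1 with a mean of at least 5 FPKM, where Atf1 was not tested.

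The differences that changed sign were all uncalled: Adcy1 (-0.0268 without Ctrl replicate 1, -0.0117 without Gsk3sKO replicate 2; -0.0268 to 0.0974 over all libraries left out), Adcy5 (0.10 without Ctrl replicate 3; -0.23 to 0.10), ENSMUST00000152065 of Adcy3 (0.16 with a pseudocount of 0.1, 0.0422 after rescaling, 0.99 without Ctrl replicate 3, 0.64 without Gsk3sKO replicate 1; -0.67 to 0.99) and ENSMUST00000152792 of Adcy3 (0.49 without Ctrl replicate 1, 0.10 without Gsk3sKO replicate 2; -0.88 to 0.49). The cause was not tested. With the replicate number as a block, 0 member gene totals, 3 member transcripts, 1 share and 2 pathway genes were called, so the block changed no count. The 3 transcripts are those of Adcy9, so their count is no support. ENSMUST00000117801 was not tested at a mean of at least 5 FPKM. Depth limits Adcy7, at an estimated 11.8 to 159 fragments per library.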

Other observations

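Prkaca, which encodes a catalytic subunit of protein kinase A, was among the 3 gene totals that followed the Adcy9 gene total most closely, as was Pafah2, a phospholipase that acts on oxidised lipids. Pearson's r of log2(FPKM + 1) over the 6 libraries was 0.992 for each of these, and 59 of 12874 gene totals had r over 0.95. Prkaca measured 48.3, 56.2 and 59.0 FPKM in Ctrl and 52.0, 50.3 and 50.03 FPKM in Gsk3sKO, so that Ctrl replicate 1 was the lowest library and Ctrl replicate 3 the highest, as for Adcy9. These values share library and depth, and with 6 libraries and so many genes a high r is a description only.

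The transcripts most like ENSMUST00000005719 of Adcy9 were ENSMUST00000164260 of Iars, ENSMUST00000048642 of Parl and ENSMUST00000197443 of Magi2, with r of 0.997, 0.997 and 0.995. Those of Parl and Magi2 were listed at 0 in all 3 Gsk3sKO libraries, and that of Iars in 2 of them. The Magi2 transcript measured 2.60, 14.1 and 11.2 FPKM in Ctrl, lowest in Ctrl replicate 1. These transcripts were chosen for their likeness over the same 6 libraries. Their zeros in Gsk3sKO and low Ctrl replicate 1 follow from that choice and are a description only. Of 21584 transcripts, 49 had r over 0.95.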
